A study of Saccharomyces cerevisiae with 23 samples.

Results

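The 10 genes described here encode the route by which budding yeast (Saccharomyces cerevisiae) takes up sulfate and reduces it to sulfide. They are the sulfate permease genes SUL1 and SUL2, MET3 and MET14 for sulfate activation, MET16 for reduction of activated sulfate, MET22 for removal of its by-product, MET5 and MET10 for sulfite reductase, and MET1 and MET8 for siroheme synthesis. They were listed by gene name, with earlier results of these data already known, and matched to the array through their systematic names. All 10 were found among the 6256 genes on the array, with 1 probe each, and all 10 were among the 5606 genes bright enough to be tested.

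The study asked how copper and zinc alter the response of yeast to a statin, a drug that blocks HMG-CoA reductase and with it the mevalonate that sterols are built from. Transcripts were measured on 2-colour Agilent arrays in 17 cultures. The groups were statin (5 µg/mL) with CuSO4 (1 mM), in 3 cultures, statin (5 µg/mL) with ZnSO4 (2 mM), in 2 cultures (replicates 2 and 3, replicate 1 was not analysed here), statin alone, CuSO4 alone, ZnSO4 alone and untreated, in 3 cultures each. All were the haploid strain BY4741a lacking PDR5, a plasma membrane drug pump gene, and the medium was synthetic complete with 2% glucose, to which 0.25 mM EDTA (a metal chelator) and 0.1% DMSO were added for the treatment. Cultures with statin had also been precultured in it, from an OD600 of 0.09 against 0.01 without statin, and were harvested near an OD600 of 0.4 against 0.8. Statin and culture density therefore cannot be told apart in any comparison of cultures with and without statin. Both metals were supplied as their sulfate salts.

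In yeast, sulfate enters through the permeases, is activated with ATP in a pair of steps, and is reduced first to sulfite and then to sulfide, which is joined to a carbon chain to make homocysteine and, from it, methionine and cysteine. The genes are switched on together by the transcription factor Met4 with the DNA-binding proteins Cbf1, Met31 and Met32 when sulfur amino acids run low, and are shut off when these are plentiful. BY4741 lacks MET17, the sulfhydrylase that joins sulfide to the carbon chain, so this strain depends on organic sulfur from the medium.

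Values are log2 ratios of a culture over a reference pooled from all conditions, so that 0 is the pool's level. Each replicate number had its own slide, and the third slide had 77.1 to 89.9% of spots well above background, against 98.4 to 98.8% on the first and 95.7 to 97.4% on the second. The PDR5 probe was well above background on 0 of 23 arrays. The MET17 probe was so on 15, but its signal never passed percentile 10.2 of all probes. Of the mating-type genes, the a-cell receptor gene STE2 was well above background on 23 arrays and ranged from percentile 34.5 to 62.3. The other a-cell genes checked, MFA1, MFA2 and BAR1, ranged from percentile 15.5 to 33.5, 18 to 39.8 and 13.6 to 25.4. They overlapped the alpha-cell genes STE3 (18.8 to 29.7) and SAG1 (21.4 to 29.7), which were well above background on 22 and 23 arrays. The alpha-cell genes MF(ALPHA)1 and MF(ALPHA)2 did not pass percentiles 18.5 and 8.01. One culture, replicate 2 of statin with CuSO4, stood apart from its group. Over all tested genes it correlated at r = 0.273 with replicate 1 and at 0.629 with replicate 3, against 0.763 between those. Its treatment markers, chosen with their values known, lay near those of its group: the copper metallothionein gene CUP1-1 had 1.99, 1.17 and 1.46 in replicates 1, 2 and 3 of statin with CuSO4, against -4.79 to -3.79 in untreated cultures, and HES1, which was high in all statin cultures, had 1.12, 0.87 and 1.42, against -3.40 to -3.26. Values of both combination groups are therefore given culture by culture. In bulk RNA, fewer cells expressing a gene and less RNA per cell cannot be told apart.

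Averaged over the 10 genes, the log2 ratio was 0.23, -3.23 and -0.30 in replicates 1, 2 and 3 of statin with CuSO4, and -2.68 and -0.11 in replicates 2 and 3 of statin with ZnSO4. It was -4.10, -4.34 and -4.33 with statin alone, -1.44, -3.00 and -1.41 with CuSO4 alone, 0.67, 0.68 and 0.75 with ZnSO4 alone, and 0.08, -0.17 and 0.17 in untreated cultures. The statin cultures were the lowest of all. Those with a statin and a metal were near the untreated level except on the second slide, where the cultures with CuSO4, with or without statin, and with statin and ZnSO4 were all low. The untreated, ZnSO4 and statin cultures of that slide lay close to their replicates.

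**Figure D1:**
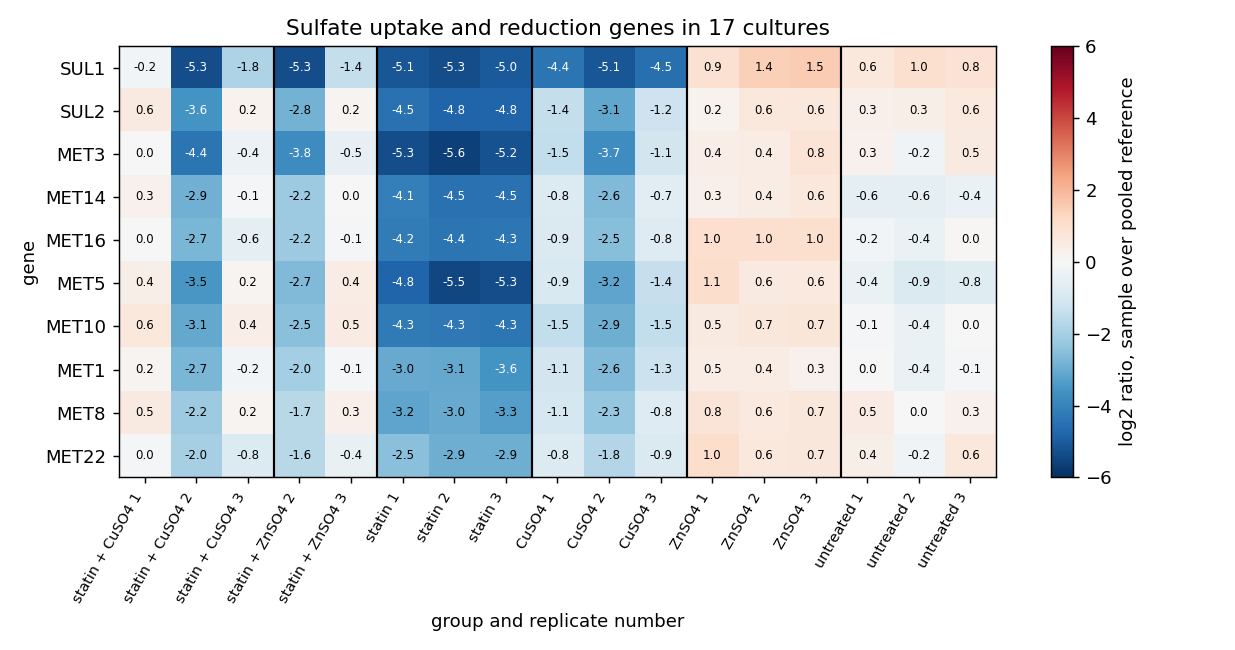
Log2 ratio of each of the 10 genes (rows) over the pooled reference in each of the 17 cultures (columns, by group and replicate number), with blue below and red above the pool. The 3 statin columns are the darkest blue, and the replicate 2 columns of statin with CuSO4, statin with ZnSO4 and CuSO4 are bluer than their replicates. SUL1 is blue in every culture with CuSO4 alone.

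SUL1 and SUL2 encode the high-affinity sulfate permeases of the plasma membrane. SUL1 had -0.15, -5.33 and -1.85 with statin and CuSO4 (replicates 1, 2 and 3) and -5.33 and -1.42 with statin and ZnSO4 (replicates 2 and 3). With statin alone it had -5.11, -5.33 and -5.04, with CuSO4 alone -4.37, -5.14 and -4.53, with ZnSO4 alone 0.91, 1.42 and 1.54, and in untreated cultures 0.65, 0.98 and 0.85. All statin and all CuSO4 cultures were below every untreated culture by a wide margin, and on the second slide SUL1 was as low with statin and a metal as with statin alone. These low values came from dim spots: in the statin group the SUL1 spots were well above background on 2 of 3 arrays, with signals of 149 to 316 on the scanner scale, against 11200 to 18800 in untreated cultures.

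SUL2 had 0.56, -3.58 and 0.19 with statin and CuSO4 and -2.84 and 0.17 with statin and ZnSO4. It had -4.46, -4.81 and -4.81 with statin, -1.44, -3.11 and -1.22 with CuSO4, 0.21, 0.63 and 0.62 with ZnSO4, and 0.29, 0.33 and 0.60 in untreated cultures. SUL2 was lowest in the statin cultures, and the CuSO4 cultures lay between these and the untreated ones.

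The difference between both permease genes within a culture, SUL1 minus SUL2, makes this plain. It was -2.92, -2.02 and -3.31 with CuSO4 (mean -2.75 ± 0.66, SD, n = 3), against 0.36, 0.65 and 0.25 in untreated cultures (0.42 ± 0.21, SD, n = 3), a change of -3.17 with no overlap. An exact permutation test gave a two-sided p of 0.1, the smallest that 3 cultures against 3 allow. With ZnSO4 the difference was 0.70, 0.78 and 0.91, slightly above untreated with no overlap (exact permutation p = 0.1, n = 3 per group). It was -0.71, -1.75 and -2.04 with statin and CuSO4, overlapping CuSO4 alone (exact permutation p = 0.2, n = 3 each), and -2.49 and -1.59 with statin and ZnSO4. With statin alone it was -0.65, -0.53 and -0.23, values that rest on the dim SUL1 spots described above, as do those of replicate 2 with statin and either metal, so no difference from the statin group is read from them. The -2.02 of CuSO4 replicate 2 rests on a SUL1 signal of 245, as dim as those. It alone made CuSO4 overlap statin with CuSO4, so that overlap is limited by dim spots too. In all 7 group comparisons were made, without correction, and none could pass a threshold of 0.05.

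**Figure D2:**
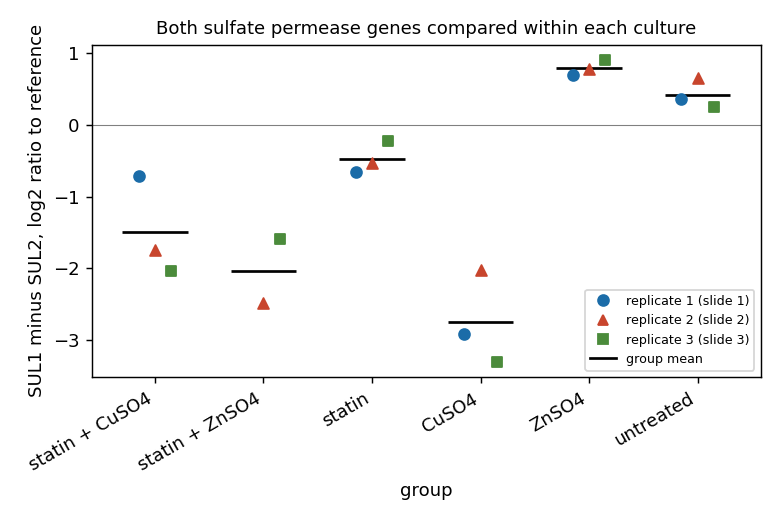
SUL1 minus SUL2 (difference of log2 ratios to the reference) in each culture by group, with replicates as symbols and group means as bars. The CuSO4 cultures, between -3.31 and -2.02, interleave with those of statin and a metal, and the ZnSO4 cultures are the highest, between 0.70 and 0.91.

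MET3 encodes ATP sulfurylase, which makes adenylyl sulfate (APS). It had -0.01, -4.38 and -0.37 with statin and CuSO4 and -3.76 and -0.49 with statin and ZnSO4. With statin alone it had -5.31, -5.60 and -5.22. It had -1.49, -3.71 and -1.12 with CuSO4, 0.40, 0.43 and 0.83 with ZnSO4, and 0.28, -0.19 and 0.52 in untreated cultures. The ZnSO4 and untreated values overlapped.

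MET14 encodes APS kinase, which makes phosphoadenylyl sulfate (PAPS). It had 0.26, -2.87 and -0.10 with statin and CuSO4, -2.19 and -0.01 with statin and ZnSO4, and -4.10, -4.46 and -4.50 with statin. With CuSO4 it had -0.84, -2.64 and -0.69, close to the untreated -0.57, -0.56 and -0.39 on 2 of 3 slides, and with ZnSO4 0.31, 0.45 and 0.64, above every untreated culture.

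MET16 encodes PAPS reductase, which yields sulfite. It had 0.02, -2.73 and -0.58 with statin and CuSO4, -2.17 and -0.12 with statin and ZnSO4, and -4.18, -4.40 and -4.34 with statin. It had -0.87, -2.54 and -0.79 with CuSO4, 0.99, 1.03 and 0.98 with ZnSO4, and -0.17, -0.38 and 0.05 in untreated cultures. The ZnSO4 cultures were close together (SD 0.03, n = 3), and all were above the untreated ones. In the statin group MET16 spots were well above background on 2 of 3 arrays.

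MET22 encodes the phosphatase that clears the adenosine bisphosphate left by PAPS reduction. It had -0.05, -2.01 and -0.82 with statin and CuSO4, -1.65 and -0.43 with statin and ZnSO4, -2.52, -2.92 and -2.91 with statin, and -0.84, -1.78 and -0.87 with CuSO4. With ZnSO4 it had 1.05, 0.63 and 0.69, overlapping the untreated 0.36, -0.19 and 0.64. All statin cultures were again the lowest.

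MET5 and MET10 encode the subunits of sulfite reductase, which makes sulfide. MET5 had 0.35, -3.47 and 0.15 with statin and CuSO4 and -2.67 and 0.44 with statin and ZnSO4, which apart from replicate 2 was above the untreated -0.42, -0.87 and -0.75. It had -4.82, -5.48 and -5.30 with statin, -0.92, -3.16 and -1.36 with CuSO4, and 1.07, 0.55 and 0.60 with ZnSO4. MET10 had 0.63, -3.06 and 0.40 with statin and CuSO4, -2.50 and 0.49 with statin and ZnSO4, -4.26, -4.30 and -4.33 with statin, -1.49, -2.92 and -1.47 with CuSO4, 0.54, 0.67 and 0.71 with ZnSO4, and -0.11, -0.38 and 0.00 in untreated cultures. Both subunit genes had every ZnSO4 culture above every untreated one and every CuSO4 culture below. For MET5 the CuSO4 gap was narrow, with -0.92 against the lowest untreated value of -0.87.

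Sulfite reductase needs siroheme, an iron-containing cofactor made from uroporphyrinogen by the methyltransferase Met1 and then by Met8, which oxidizes the ring and inserts the iron. MET1 had 0.16, -2.74 and -0.17 with statin and CuSO4, -2.04 and -0.06 with statin and ZnSO4, -3.04, -3.06 and -3.57 with statin, -1.12, -2.64 and -1.27 with CuSO4, 0.46, 0.44 and 0.26 with ZnSO4, and -0.02, -0.38 and -0.09 in untreated cultures. MET8 had 0.52, -2.17 and 0.17 with statin and CuSO4, -1.68 and 0.32 with statin and ZnSO4, -3.15, -3.02 and -3.31 with statin, -1.07, -2.32 and -0.79 with CuSO4, 0.79, 0.60 and 0.68 with ZnSO4, and 0.51, -0.04 and 0.26 in untreated cultures. For both genes the statin cultures were below all others and the CuSO4 cultures below all untreated ones, and the ZnSO4 cultures were above all untreated ones.

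**Figure D3:**
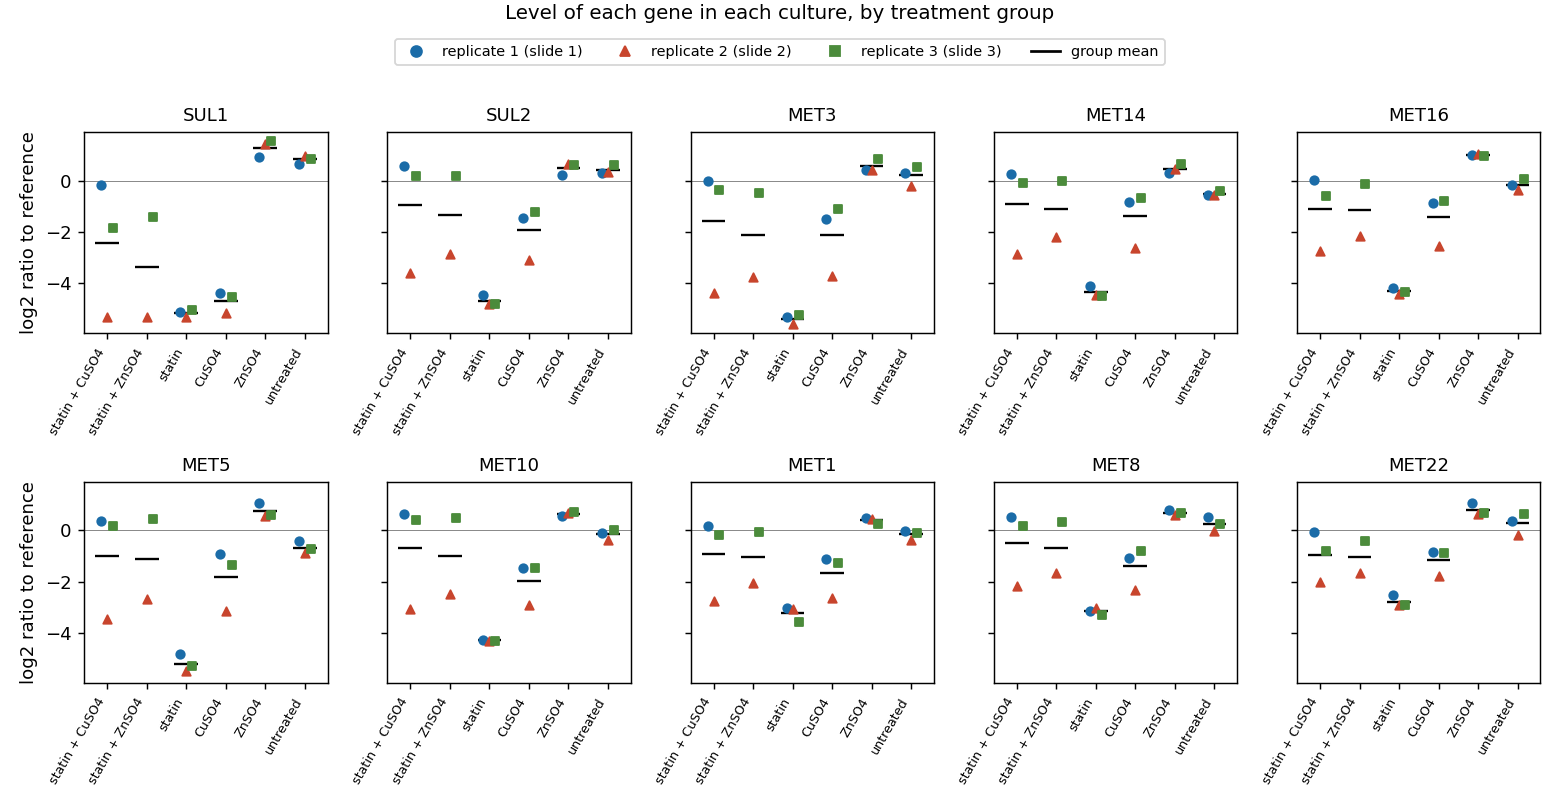
Log2 ratio to the reference (y axis) of each gene in each culture by group (x axis), with replicates 1, 2 and 3 as circles, triangles and squares and the group mean as a bar. In the groups with CuSO4, and with statin and ZnSO4, the triangle of replicate 2 lies below its replicates in all 10 panels, whereas in the statin group the replicates lie together.

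Ordered by mean, the groups ran statin, CuSO4, statin with ZnSO4, statin with CuSO4, untreated, ZnSO4 from low to high in 9 of the 10 genes, and in MET3 statin with ZnSO4 stood below CuSO4. Between neighbours in this order, the statin cultures overlapped CuSO4 in SUL1. In the other genes they lay below the next group, and the share of all genes that did so was not computed. The 3 middle groups overlapped their neighbours among themselves in every gene, and statin with CuSO4 overlapped untreated in all but SUL1. ZnSO4 was above untreated without overlap in 6 genes, as in 17.5% of all genes. The order of both combination groups depends on the slides each holds, since statin with ZnSO4 has no culture on slide 1: the average over the 10 genes was -3.23 for statin with CuSO4 and -2.68 for statin with ZnSO4 on slide 2, and -0.30 and -0.11 on slide 3.

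Differences between groups were tested with limma across the 5606 genes, with all groups in 1 fit, and a gene was called at a Benjamini-Hochberg adjusted p under 0.05. Errors beside log2 differences are standard errors of that fit. The comparisons with untreated cultures share those cultures, and both combination groups are set against the same statin cultures.

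Under statin alone all 10 genes fell, at a background of 18.8% of all genes called lower. The median log2 difference from untreated was -4.14, against -0.01 over all tested genes, and adjusted p ran from 4.81e-05 to 0.0014. SUL1 fell by 5.99 ± 0.99 (63.4-fold, with its spots well above background on 2 of 3 statin arrays), MET3 by 5.58 ± 0.98 (47.9-fold) and SUL2 by 5.10 ± 0.88 (34.3-fold). The sulfite reductase genes MET5 and MET10 had log2 differences of -4.52 ± 0.88 and -4.13 ± 0.80, MET16 of -4.14 ± 0.61, and MET14 of -3.85 ± 0.69. The smallest falls were those of MET8 (-3.40 ± 0.59), MET1 (-3.06 ± 0.62) and MET22 (-3.05 ± 0.42). In every gene the 3 statin cultures lay below the 3 untreated ones, as 26.2% of all genes did. Within the slides the median over the 10 genes was -4.08, -3.97 and -4.36.

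Under CuSO4 alone 3 genes fell, at a background of 16.6% of all genes called lower. SUL1 fell by 5.50 ± 0.99 (45.3-fold, limma adjusted p = 0.000562), MET8 by 1.64 ± 0.59 (adjusted p = 0.0429) and MET22 by 1.44 ± 0.42 (adjusted p = 0.0149). The other 7 had differences between -2.33 (SUL2, adjusted p = 0.052) and -0.89 (MET14, adjusted p = 0.349), and 7 of the 10 had an unadjusted p under 0.05. All 10 had their CuSO4 cultures below their untreated cultures without overlap, as 26.4% of all genes did. With the slide as a replicate block 8 genes were called lower, all but MET14 and MET5, where 23.2% of all genes were. Within the slides the median was -1.29, -2.28 and -1.32. Without untreated replicate 3, or without CuSO4 replicate 2, only SUL1 was called, where 12.9% and 12.1% of all genes were lower. MET8 was also not called without untreated replicate 1 or 2 or without CuSO4 replicate 1.

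Under ZnSO4 alone limma called 0 of the 10 genes, at a background of 16.6% of all genes called in either direction, and 0 had an unadjusted p under 0.05. Differences from untreated ran from 0.08 (SUL2) to 1.42 (MET5), with a median of 0.53. The 95% interval was -0.46 to 3.30 for MET5 and -0.14 to 2.47 for MET16. For 6 genes all ZnSO4 cultures were above all untreated ones, as for 17.5% of all genes. When the fit held only these 6 cultures, whose replicates were close together, 5 genes were called higher, where 9.42% of all genes were: MET14 (0.97, adjusted p = 0.000608), MET16 (1.17, 0.000278), MET5 (1.42, 0.000517), MET10 (0.80, 0.00175) and MET1 (0.55, 0.0128). Both sulfite reductase subunits were among them and neither permease was.

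**Figure D4:**
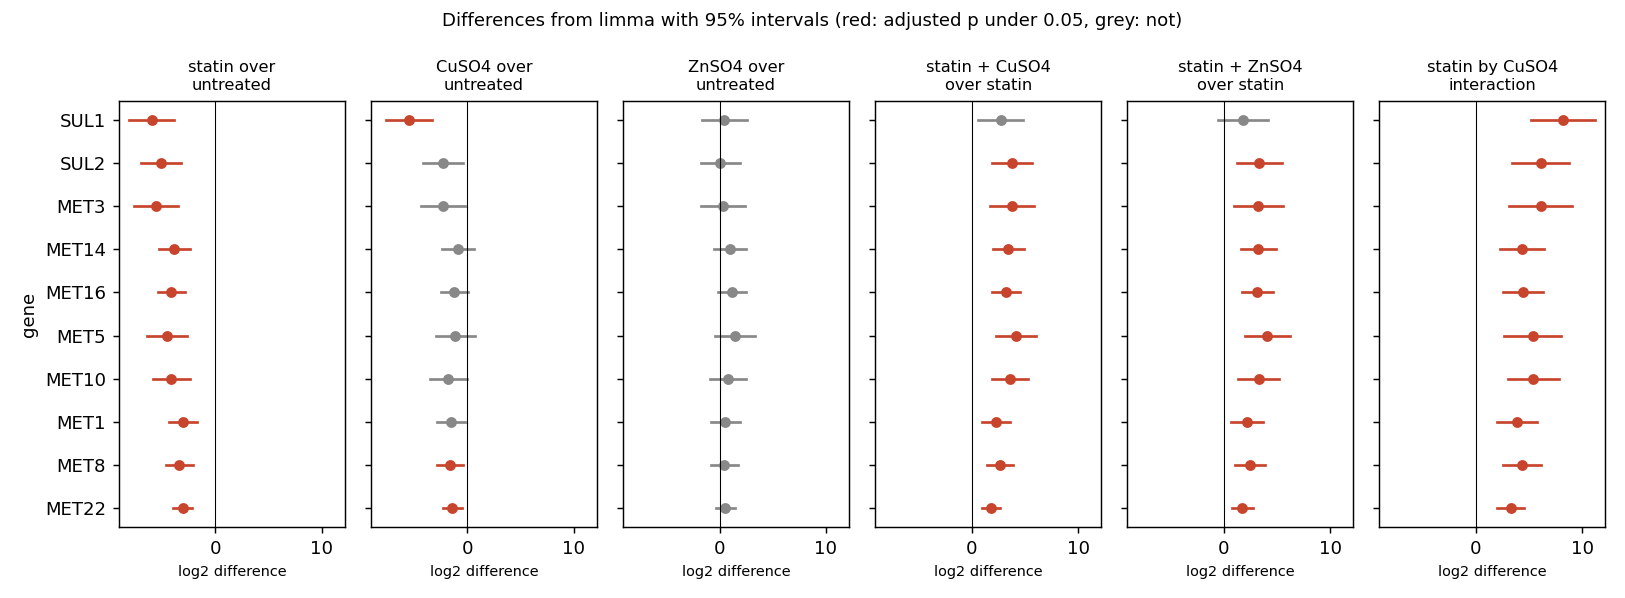
Log2 difference between groups (x axes) for each of the 10 genes in 6 of the comparisons, as points with 95% intervals of the limma fit, red for genes called at an adjusted p under 0.05 and grey for the others. All 10 are red for statin against untreated, between -5.99 and -3.05, and all 10 are grey for ZnSO4 against untreated, between 0.08 and 1.42.

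Adding CuSO4 to statin raised 9 of the 10 genes over statin alone, at a background of 9.44% of all genes called higher. The median was 3.33, against 0.01 over all genes, and 9 genes had all 3 cultures above all statin cultures, as 15.6% of all genes did. MET5 rose by 4.21 ± 0.88 (18.5-fold, limma adjusted p = 0.00329), MET3 by 3.79 ± 0.98 and SUL2 by 3.75 ± 0.88, and MET22 by 1.82 ± 0.42. SUL1, at 2.72 ± 0.99, was not called (adjusted p = 0.0756). On the second slide the differences were smaller, with a median of 1.23 against 4.62 and 4.09 on the others, and SUL1 differed by 0 there. With the slide as a replicate block all 10 were called, where 13.7% of all genes were higher. Without replicate 2 of statin with CuSO4 SUL1 was called too (4.16, limma adjusted p = 0.00114). MET3 and MET1 were not called without replicate 1, or without replicate 3, of statin with CuSO4, nor MET1 without statin replicate 3. With only these 2 groups in the fit, 6 genes were called, without SUL1, SUL2, MET3 and MET1, where 5.89% of all genes were higher. With scale normalization between arrays 5 were called, where 7.38% of all genes were higher.

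Adding ZnSO4 to statin likewise raised 9 genes over statin alone, at a background of 11.7% of all genes called higher, with a median of 3.21. For 9 genes both cultures were above all statin cultures, as for 25.8% of all genes. MET5 rose by 4.09 ± 0.98 (17-fold, limma adjusted p = 0.00796), MET14 by 3.25 ± 0.78 and MET16 by 3.17 ± 0.68, while SUL1, at 1.79 ± 1.11, was not called (adjusted p = 0.286). Without replicate 3 of statin with ZnSO4 the median was 1.71 and 0 genes were called, and SUL1 turned to -0.17. That fit has 1 culture of statin with ZnSO4, assumed to vary like the other groups, and it called 5.42% of all genes higher. On slide 2 alone 9 genes were higher than with statin. The slide medians were 1.82 and 4.36, and with scale normalization between arrays 2 genes were called, where 9.29% of all genes were higher. Leaving out statin replicate 1, 2 or 3 left 6, 7 or 6 genes called, MET3 and MET1 being lost each time. In those fits 7.87%, 11.3% and 9.03% of all genes were higher.

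Between statin with CuSO4 and CuSO4 alone, limma called 0 of the 10 genes, against a background of 44.3% of all genes called in either direction, and 1 (SUL1) had an unadjusted p under 0.05. The differences ran from 0.21 (MET22) to 2.23 (SUL1, adjusted p = 0.0803). The slides disagreed: all 10 genes were higher with statin on slides 1 and 3, with medians of 1.39 and 1.04, and 9 of 10 were lower on slide 2, with a median of -0.21. Without replicate 2 of statin with CuSO4, 8 genes were called higher, with a median of 1.83, where 24.5% of all genes were.

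Between statin with ZnSO4 and ZnSO4 alone, 3 genes were lower, at a background of 14.2% of all genes called lower. SUL1 fell by 4.66 ± 1.11 (25.3-fold, limma adjusted p = 0.00663), MET16 by 2.14 ± 0.68 (adjusted p = 0.0303) and MET22 by 1.83 ± 0.47 (adjusted p = 0.00986). All 10 genes lay below without overlap, as 26.8% of all genes did. The fall was largest on slide 2, with a median of -3.19, against -0.56 on slide 3. For SUL1 it was -6.75 on slide 2 and -2.95 on slide 3, so its fold describes neither slide. Its spots with statin and ZnSO4 on slide 2 were dim (signals 168 and 137). With the slide as a replicate block MET3 was called too (-2.46, adjusted p = 0.0298). Without replicate 2 of statin with ZnSO4 the median was -0.46, and without its replicate 3 it was -3.15, each with 1 culture left in that group. MET16 was not called without ZnSO4 replicate 1, 2 or 3.

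The statin effect differed between cultures with and without CuSO4 for all 10 genes, at a background of 8.13% of all genes with a higher interaction. The interaction, the statin difference with CuSO4 minus that without, ran from 3.26 ± 0.59 (MET22) to 8.22 ± 1.41 (SUL1), with a median of 4.89 and limma adjusted p from 0.00114 to 0.00659. It was above 0 for all 10 genes on each slide, with medians of 5.46, 3.82 and 5.38. SUL1 was already at dim spots with statin alone and with CuSO4 alone. A further fall with both could hardly be measured, so falls that add up could still give a positive interaction. On slide 2 its spots were dim with both too, so that slide cannot decide for SUL1. With scale normalization between arrays 9 genes were called, without MET5 (4.33, limma adjusted p = 0.0527), where 5.57% of all genes were higher. For ZnSO4 the same interaction was called for 0 genes, at a background of 1.03% of all genes called in either direction, and 4 had an unadjusted p under 0.05. It ran from 1.22 ± 0.63 (MET22) to 3.27 ± 1.32 (SUL2). Its median was 0.79 on slide 2, with 9 genes above 0, and 3.38 on slide 3, with all 10 above 0. Without slide 2, which leaves 1 culture of statin with ZnSO4, all 10 were called higher with a median of 3.27, where 1.43% of all genes were. Whether the interactions of the metals differ from each other was not tested.

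These tests were limited by the spread of the genes themselves. The residual standard deviation of the 10 genes was 0.59 (MET22) to 1.42 (SUL1), against a median of 0.17 over all tested genes, and they ranked between 2 and 64 from the top among 5606. The spread was not the same in all groups: the median SD over the 10 genes was 1.89 with statin and CuSO4, 1.83 with statin and ZnSO4 (n = 2) and 0.91 with CuSO4, but 0.20 with statin, with ZnSO4 and in untreated cultures. Replicate 2 lay below the mean of its replicates by a median of 3.26 in statin with CuSO4, 2.58 in statin with ZnSO4 and 1.58 in CuSO4. Over all genes these shifts had medians of -0.03, -0.01 and 0. In untreated, ZnSO4 and statin cultures the replicate 2 shift of the 10 genes had medians of -0.32, 0.01 and -0.17. Pairs of arrays hybridised with RNA of the same culture differed by at most 0.21 for any of the 10 genes, and by at most 0.07 for replicate 2 of statin with CuSO4, so the low values of that culture were measured alike on both its arrays. What set those cultures of the second slide apart was not tested.

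**Figure D5:**
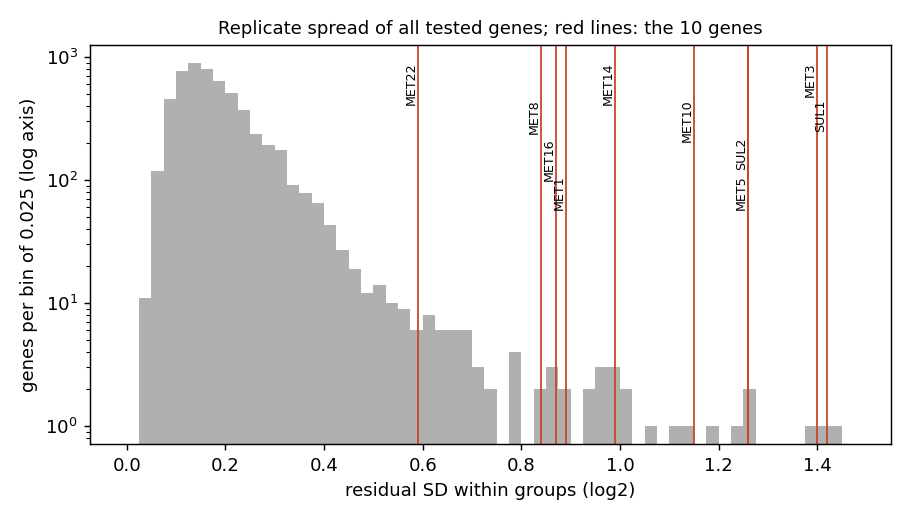
Distribution of the residual standard deviation (log2 units, x axis) over all 5606 tested genes (count on the y axis), with the 10 genes marked. All 10 lie between 0.59 and 1.42, beyond the 95th percentile of 0.37.

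The 10 genes varied together. Over the 17 cultures the Pearson correlation of their log2 ratios had a median of 0.973 over 45 pairs, from 0.812 (SUL1 and MET14) to 0.993 (MET1 and MET8). For deviations from the group means the median was 0.972. These cultures share slides and a reference, and the correlations are a description. The genes outside the set with the most similar pattern, by correlation with the set's mean over the 17 cultures, were YML018C (0.993), MET32 (0.992), BNA3 (0.992), RMD6 (0.991), STR3 (0.988), MET28 (0.987), MUP3 (0.983) and RAD59 (0.981). MET32 and MET28 are regulators of the sulfur genes, STR3 makes homocysteine from cystathionine and MUP3 imports methionine. BNA3 is an aminotransferase of kynurenine metabolism and RAD59 a protein of homologous recombination. RAD59 averaged -0.74 with statin and CuSO4, -1.10 with statin and ZnSO4, -2.88 with statin, -1.86 with CuSO4, 0.38 with ZnSO4 and 0.01 in untreated cultures.

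Other genes of sulfur metabolism were counted in lists, to be read beside the shares of all genes called. These were 18.8% lower under statin, 16.6% lower under CuSO4 and 16.6% in either direction under ZnSO4. Added to statin, CuSO4 raised 9.44% and ZnSO4 11.7%. Statin with CuSO4 against CuSO4 had 44.3% in either direction, and statin with ZnSO4 against ZnSO4 had 14.2% lower. The interactions were higher for 8.13% (CuSO4) and 0.66% (ZnSO4). Of 14 tested genes for sulfide incorporation and for methionine and cysteine synthesis, 12 fell under statin (median -2.93), 5 fell under CuSO4 and 0 changed under ZnSO4. Of those, 11 were higher with statin and CuSO4 than with statin, 12 with statin and ZnSO4, 0 changed between statin with CuSO4 and CuSO4, and 8 were lower with statin and ZnSO4 than with ZnSO4. The CuSO4 interaction was higher for 10 and the ZnSO4 interaction for 1. MET6, methionine synthase, fell by 3.87 ± 0.50 under statin and rose by 2.75 ± 0.50 when CuSO4 was added to it. All 7 genes for uptake and scavenging of organic sulfur fell under statin and 6 fell under CuSO4, and JLP1, a sulfonate dioxygenase, had -4.40 ± 0.86 and -4.65 ± 0.86. With ZnSO4 1 of the 7 rose, at a background of 8.79% of all genes called higher. When CuSO4 was added to statin 3 rose, and when ZnSO4 was added 1 did. Between statin with CuSO4 and CuSO4 1 was higher, at a background of 21%. Against ZnSO4 alone 6 were lower with statin and ZnSO4, and the interactions were higher for 7 (CuSO4) and 1 (ZnSO4, at a background of 0.66%).

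Of 6 regulators, 3 fell under statin, at a background of 18.8%, MET32 by 3.80 ± 0.71 and MET28 by 3.62 ± 0.56 among them. Under CuSO4 3 fell and 1 rose, MET31 (0.75, limma adjusted p = 0.0213), at backgrounds of 16.6% called lower and 18% called higher. Under ZnSO4 1 rose, at 8.79%. A count of 1 in a list this small is not read as a change of the list. When added to statin, CuSO4 raised 2 and ZnSO4 raised 1, at backgrounds of 9.44% and 11.7%, MET28 by 2.80 ± 0.56 with CuSO4. Between statin with CuSO4 and CuSO4, 1 was higher and 1 lower (MET31, -0.80), at backgrounds of 21% and 23.3%. Between statin with ZnSO4 and ZnSO4, 1 was lower, at a background of 14.2%. The CuSO4 interaction was higher for 4 and lower for 1, at backgrounds of 8.13% and 10.3%, and the ZnSO4 interaction was called for 0. MET32, a close relative of MET31, had -1.84 under CuSO4 and was not called (adjusted p = 0.0555). MET4, the activator itself, fell by 0.39 under CuSO4 (adjusted p = 0.0241) and rose by 0.40 under ZnSO4 (adjusted p = 0.0403), and had -0.21 under statin (adjusted p = 0.204). Of the 3 thioredoxin system genes, which supply electrons to PAPS reductase, 0 changed under statin, CuSO4 or ZnSO4 against untreated. Also 0 changed when either metal was added to statin, or in either interaction. In each comparison at a fixed metal 1 was lower with statin, TRX1 by 0.71 with CuSO4. The shares of all genes called lower there were 23.3% (CuSO4) and 14.2% (ZnSO4), so 1 of 3 is not read as a change of the list.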

How the data were processed

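Total RNA of 17 yeast cultures in 6 groups was measured on 23 2-colour arrays, the culture in Cy3 and a pool of all conditions in Cy5, with no dye swap. Per the file headers, the authors deposited Feature Extraction 10.5.1.1 output: median spot and background intensity, and a log10 ratio. The authors' deposited value table holds that log10 ratio with its sign turned, within 5e-06. From the intensities, background was corrected by normexp (offset 50), control spots got weight 0, outlier spots were dropped, and ratios were normalized by loess within arrays. The log2 ratios computed from the deposited intensities were averaged over spots and over arrays of a culture. The design named mean intensities, and median intensities were used. Genes with both spots well above background on every array of at least 1 group were tested (5606 of 6256). limma 3.58.1 in R 4.3.3 was fitted once to all groups and tested on simulated data. Replicates are labelled as biological. The replicate number is the slide, by the headers' slide marks for 1 and 2 and by a shared scan time for 3, and fits with it as a block are given where calls changed. The number of arrays limits the precision. The genes and lists were chosen with earlier results of these data known. All 10 genes are described, and similar genes were named by their correlation with the set's mean. Sequences and coordinates are not used here.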

Additional observations from a re-analysis of the deposited data

Results flagged for a closer look

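For each of the 10 genes the effect of statin differed between cultures with and without CuSO4, by the test of the interaction itself in limma. The log2 interaction was 8.22 for SUL1 and 6.08 for SUL2, the permeases, 6.10 for MET3, 4.34 for MET14 and 4.44 for MET16, 5.34 for MET5 and 5.42 for MET10, 3.83 for MET1 and 4.30 for MET8, and 3.26 for MET22. Adjusted p ran from 0.00114 to 0.00659, and each gene had a positive interaction on 3 of 3 slides. SUL1 spots were already dim with statin alone (signals 149 to 316) and with CuSO4 alone (245 to 737). A further fall with both could hardly be measured, so that floor limits the SUL1 interaction. On slide 2 SUL1 had -5.33 with both, -5.33 with statin and -5.14 with CuSO4, and its interaction there was 6.12. With all 3 at dim spots, falls that add up could also give a positive value, so slide 2 cannot decide for SUL1. With both it had -0.15 on slide 1 and -1.85 on slide 3. Statin cultures differed in density from the others both with and without CuSO4. An effect of CuSO4 that depends on density therefore cannot be told apart from this interaction. With scale normalization between arrays the MET5 interaction was 4.33 and was not called (adjusted p = 0.0527).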

How the results depend on the processing

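All 10 genes were called lower under statin, and all 10 higher for the CuSO4 interaction, whichever replicate was left out. In those fits 15.1 to 17.4% of all genes were lower under statin, and 5.64 to 11.9% were higher for the CuSO4 interaction. Left-out replicates gave 1 to 3 calls for CuSO4 and 0 for ZnSO4 against untreated, and 0 for the ZnSO4 interaction. For statin with CuSO4 they gave 7 to 10 against statin and 0 to 8 against CuSO4. Leaving out a statin replicate gave 6 to 7 for statin with ZnSO4 against statin, where 7.87 to 11.3% of all genes were higher. Leaving out a ZnSO4 replicate gave 2 for statin with ZnSO4 against ZnSO4, where 8.74 to 13.9% were lower. Leaving out replicate 2 or 3 of statin with ZnSO4 left 1 culture in that group. The medians were then 4.27 or 1.71 against statin and -0.46 or -3.15 against ZnSO4. With replicates left out, 11.5 to 15% of all genes were lower for CuSO4 against untreated. For statin with CuSO4, 6.72 to 10.1% were higher against statin and 15.6 to 24.5% against CuSO4. With the replicate block, CuSO4 against untreated gave 8 calls, where 23.2% of all genes were lower. No other count of calls moved by over 1.5 times. With only the groups compared, the counts were 8 for CuSO4 (17.8% of all genes lower) and 5 for ZnSO4 (9.42% higher) against untreated. For statin with ZnSO4 against ZnSO4 the count was 6 (11.7% lower). The stricter filter gave 1 for that comparison, with 8 genes tested, where 13.8% of all genes were lower. Scale normalization between arrays and leaving out slide 2 were chosen after seeing the data. Scaling gave 1 for CuSO4 against untreated, where 13.3% of all genes were lower. It gave 5 and 2 for statin with CuSO4 and with ZnSO4 against statin, where 7.38% and 9.29% were higher. For the CuSO4 interaction it gave 9, where 5.57% were higher, MET5 being lost (4.33, limma adjusted p = 0.0527). It turned statin with CuSO4 against CuSO4 to -0.01 for MET16 and -0.04 for MET22. Without slide 2 the counts were 8 for CuSO4 (9.6% of all genes lower) and 4 for ZnSO4 (5.71% higher) against untreated. For statin with CuSO4 against CuSO4 the count was 9 (20.2% higher). The ZnSO4 interaction, with 1 culture of statin with ZnSO4 left, had a median of 3.27. SUL2 turned to -0.03 for ZnSO4 against untreated. Over left-out replicates, SUL1 ran from -0.17 to 3.74 for statin with ZnSO4 against statin and from -0.63 to 3.28 for the ZnSO4 interaction. For statin with CuSO4 against CuSO4, MET3 ran from -0.28 to 1.91, MET14 from -0.14 to 1.47, MET16 from -0.27 to 1.12 and MET22 from -0.25 to 0.73. The cause was not tested. Same-numbered cultures correlated in their deviations at -0.0903 to 0.688, so that not every pair passed 0.1. The 80 pairs with different numbers and different groups had -0.688 to 0.422. Deviations from means of 2 or 3 cultures push such pairs towards negative values where slides share deviations. Dim spots limit SUL1 and MET16 in the statin group.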
